A study of Homo sapiens with 4 samples.

Results

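The occupancy of RNA polymerase II (Pol II) was described at 39 mitosis and G2/M genes, out of 19974 protein-coding genes on chromosomes 1 to 22 and X. The genes were taken from a fixed list of cell cycle genes that act from late G2 to cytokinesis, and their peaks were those that touched the stretch from 5000 bp before to 5000 bp after the gene in RefSeq (GRCh38). The cells were U2OS, a human osteosarcoma line that the labels call epithelial. One group received a control siRNA and the other an siRNA against NKAP, a nuclear protein known for roles in splicing and transcriptional repression. In both groups transfection lasted 48 h and the cells were fixed with formaldehyde before chromatin immunoprecipitation and sequencing (ChIP-seq) with an antibody to Pol II. The labels name no clone, other genotype or other agent, and both groups were otherwise treated alike. There was 1 ChIP library per group; differences between the groups have no replicate check, and none was tested. The 2 input libraries, of sheared chromatin without antibody, were not used here. An siRNA acts on the transcript, so these peak lists hold no check of the NKAP knockdown. In a bulk culture, fewer cells with Pol II on a gene and less Pol II per cell cannot be told apart.

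Entry into mitosis is driven by CDK1 bound to cyclin B, which is held inactive by phosphorylation until CDC25 phosphatases release it. Exit from mitosis follows when the anaphase-promoting complex (APC/C) with its activator CDC20 marks cyclin B and securin for destruction, once all kinetochores are attached and the spindle checkpoint is silent. The genes of this programme are transcribed mainly in late S phase and G2. Many of their promoters carry CCAAT boxes, the sites of the factor NF-Y, and a cell cycle genes homology region (CHR), the site of the MuvB complex, which acts with B-MYB and FOXM1. Pol II commonly gathers just downstream of a start site before it moves into the gene body, and again past the 3′ end, where transcription terminates.

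The lists held 36345 control peaks over 38.6 Mb and 26387 knockdown peaks over 23.9 Mb. By the reads recovered from the peak values, the depth of the knockdown library was 0.857 times that of the control, and a point of equal density would show 0.8419 times as many knockdown as control reads. A ratio below is the knockdown reads at a summit over the control reads, divided by 0.8419, so that 1 means equal density. Its interval is exact at 95% and, like the 95% Wilson intervals of shares, covers counting error only. The lowest peak had 8 reads in either list, so a stretch without a peak can still hold Pol II. As a check of the cell type, peaks within 1000 bp of a gene end were sought at marker genes. Of 12 mesenchymal and osteoblast lineage markers, 7 (control) and 6 (knockdown) had such a peak. These were VIM, COL1A1, FN1, SPARC, BGLAP and SP7 in both lists and CDH11 in the control list only. RUNX2, TWIST1, COL1A2, ALPL and IBSP had none in either list. Among epithelial markers KRT8 and KRT18 had such a peak in both lists and EPCAM, CDH1, KRT5 and KRT14 had none. None of 5 hepatocyte and none of 5 lymphocyte markers had one, and 3 of 5 neuron markers did in both lists (SYT1, TUBB3 and SNAP25). Some markers without such a peak had others in their windows (control and knockdown): RUNX2 (6 and 5), ALPL (2 and 2), CDH1 (4 and 0), PTPRC (5 and 1), MS4A1 (1 and 1), RBFOX3 (6 and 3) and STMN2 (1 and 0).

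The promoters of these genes shared sequence features that the list did not use. Strand and start sites were taken from the RefSeq promoter table, which listed 33 of the 39 genes; those not matched were AURKA, FOXM1, TPX2, BIRC5, TTK and UBE2C. In the 250 bases before the outermost listed start, here the main start, the CCAAT box was found on either strand in 25 of 33 genes (75.8%), against 34.4% of 15812 promoters of the same length. The CHR letters TTTGAA stood in 18 of 33 (54.5%), against 10.9%. Both stood in 16 (48.5%), against 4.23% of all promoters. CCAAT occurred at least 2 times in 16 of the 33, against 11.5% of all promoters. A further CHR form, TTTAAA, was found in 11 (33.3%, against 9.27%), TTCGAA in none (1.31% of all promoters), and the E2F form GCGGGAA in 4 (12.1%, against 7.39%). Places were counted on both strands and may overlap: the letters CCAATTGG, found in HMMR and PTTG1, count as 2 CCAAT places. A match is a run of letters and does not show that a factor is bound.

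The promoters of 8 genes are shown because the results below turn on them. The first 5 had the highest control fold at the start among promoters whose bases touch no other protein-coding gene. Of these, the HMMR start still lies within 1000 bp of an end of NUDCD2. TOP2A had the lowest start ratio, and CCNB1 and MKI67 had ratios above 1; these were chosen after their values were seen. Capitals mark CCAAT and TTTGAA and their reverse complements, ATTGG and TTCAAA. Each is written 5′ to 3′ on the strand of the gene, with its last base next to the start (RefSeq, GRCh38.p14).

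CDC20 (chr1:43358731-43358980, plus strand): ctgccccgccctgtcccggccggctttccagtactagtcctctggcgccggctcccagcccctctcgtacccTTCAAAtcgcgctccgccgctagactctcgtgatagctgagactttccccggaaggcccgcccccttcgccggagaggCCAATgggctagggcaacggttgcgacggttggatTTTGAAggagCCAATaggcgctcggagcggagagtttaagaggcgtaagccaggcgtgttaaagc

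KIF23 (chr15:69414099-69414348, plus strand): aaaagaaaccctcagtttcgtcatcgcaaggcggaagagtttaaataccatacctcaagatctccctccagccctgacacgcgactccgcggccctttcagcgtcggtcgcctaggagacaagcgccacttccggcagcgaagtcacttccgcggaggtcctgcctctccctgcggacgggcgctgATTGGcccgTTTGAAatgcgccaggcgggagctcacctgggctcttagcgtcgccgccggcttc

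CDK1 (chr10:60778081-60778330, plus strand): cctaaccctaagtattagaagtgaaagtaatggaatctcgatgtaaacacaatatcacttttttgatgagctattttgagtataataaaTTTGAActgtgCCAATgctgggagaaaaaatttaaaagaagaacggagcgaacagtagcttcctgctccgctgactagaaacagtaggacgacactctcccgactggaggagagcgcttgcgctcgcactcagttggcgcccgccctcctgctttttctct

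CCNB2 (chr15:59104896-59105145, plus strand): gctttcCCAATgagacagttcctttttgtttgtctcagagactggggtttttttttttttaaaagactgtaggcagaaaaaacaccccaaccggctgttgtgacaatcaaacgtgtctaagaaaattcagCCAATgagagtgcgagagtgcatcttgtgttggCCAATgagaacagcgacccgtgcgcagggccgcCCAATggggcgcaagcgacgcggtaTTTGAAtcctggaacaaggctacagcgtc

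HMMR (chr5:163460382-163460631, plus strand): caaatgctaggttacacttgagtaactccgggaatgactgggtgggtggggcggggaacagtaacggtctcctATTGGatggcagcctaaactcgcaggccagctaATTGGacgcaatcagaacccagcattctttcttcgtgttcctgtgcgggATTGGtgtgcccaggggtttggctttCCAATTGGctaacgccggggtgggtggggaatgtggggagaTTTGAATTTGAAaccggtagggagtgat

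TOP2A (chr17:40417897-40418146, minus strand): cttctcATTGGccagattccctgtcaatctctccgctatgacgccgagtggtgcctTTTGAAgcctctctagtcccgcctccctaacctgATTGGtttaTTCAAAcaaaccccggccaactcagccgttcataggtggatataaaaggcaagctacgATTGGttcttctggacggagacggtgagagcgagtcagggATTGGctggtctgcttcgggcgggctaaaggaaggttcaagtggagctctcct

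CCNB1 (chr5:69166900-69167149, plus strand): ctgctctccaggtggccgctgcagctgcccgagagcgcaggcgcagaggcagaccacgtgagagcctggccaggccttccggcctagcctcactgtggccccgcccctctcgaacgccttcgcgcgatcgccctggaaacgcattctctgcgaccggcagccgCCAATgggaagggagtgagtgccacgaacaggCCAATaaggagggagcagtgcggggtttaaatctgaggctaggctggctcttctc

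MKI67 (chr10:128126424-128126673, minus strand): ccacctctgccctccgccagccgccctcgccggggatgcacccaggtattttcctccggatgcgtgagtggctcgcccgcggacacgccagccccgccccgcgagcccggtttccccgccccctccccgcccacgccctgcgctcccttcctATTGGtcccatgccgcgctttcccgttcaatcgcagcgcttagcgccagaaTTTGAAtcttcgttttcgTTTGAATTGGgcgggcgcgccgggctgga

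In CCNB2 the 4 CCAAT boxes began 244, 120, 87 and 54 bases before the start, ahead of a CHR at 29 bases. In CCNB1 2 CCAAT boxes began at 87 and 55 bases, and the promoter held no TTTGAA but 1 TTTAAA. HMMR had 5 CCAAT places, the most of any member, of which a pair overlapped, and 2 CHR copies in a row at 28 and 22 bases. In CDK1 the CHR began 161 bases and the CCAAT box 150 bases before the main start; a second listed start lies 147 bp further in. The start peaks of CDC25C and ANLN had still higher folds, but their upstream bases lie within FAM53C and MATCAP2 and are not printed. The ANLN bases were 75.2% G or C with no CCAAT and 2 CHR copies, and those of CDC25C were 73.6% G or C with neither.

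All 39 genes carried a peak in their window in both lists, against 64.7% of protein-coding genes. All 33 genes with a listed start had a peak within 1000 bp of it in both lists, against 56.0% of genes with a listed start. Of genes with a control start peak in general, 92.7% kept one in the knockdown list. No member had a peak in a single list only, and none was without a peak. The difference between the libraries therefore lay in the strength of the start peaks and in how far peaks reached along the genes.

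Start peaks were weaker in the knockdown library at most of these genes. The median summit held 53 control reads and 36 knockdown reads, against 40 and 31 over the 8849 genes with a start peak in both lists. The median ratio was 0.751 (quartiles 0.682 and 0.807), and 28 of 33 ratios were below 1. Over all 8849 genes the median was 0.914 (quartiles 0.792 and 1.07) and 65.0% were below 1. A ratio at least 1.5-fold below 1 was found at 7 of the 33 (21.2%), against 8.10% of all genes. None was at least 1.5-fold above 1, against 2.99%.

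Since many members had strong starts, ratios were also set beside those of all genes of like strength. With the 8849 genes split into 5 equal groups by control start reads, from weakest to strongest, the all-gene median was 1.08, 0.950, 0.912, 0.873 and 0.842. The medians of the 1, 5, 6, 7 and 14 members in these groups were 0.713, 0.792, 0.792, 0.751 and 0.702, each lower than that of all genes in the group. Control reads are the denominator of the ratio and a peak was required in both lists, so part of the fall from 1.08 to 0.842 is built into this split. With groups by the mean of both lists at equal depth, an alternative chosen after seeing the data, the all-gene medians were 1.00, 0.928, 0.914, 0.891 and 0.879, and those of 3, 3, 9, 6 and 12 members were 0.713, 0.831, 0.761, 0.777 and 0.702. In the strongest group by control reads 5 of 14 members were at least 1.5-fold lower, against 10.7% of all genes there; by the mean of both lists it was 4 of 12, against 6.16%. Without the 10 members whose start lay within 1000 bp of an end of another protein-coding gene, the median was 0.747, and 5 of 23 were at least 1.5-fold lower. The 10, with the neighbour, were CCNA2 (BBS7), CDC25B (CENPB), CDC25C (FAM53C), KIF20A (BRD8), NDC80 (METTL4), NUF2 (RGS5), ANLN (MATCAP2), CDCA8 (AIRIM), NUSAP1 (OIP5) and HMMR (NUDCD2). Reads at these starts may include those of the neighbours. Setting the all-gene median to 1 moved the members' median to 0.822. Intervals of single genes below are set against 1, not against the all-gene median of 0.914. Of the start intervals below 1, those of CENPA (0.462 to 0.954) and PRC1 (0.352 to 0.978) include 0.914.

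**Figure D1:**
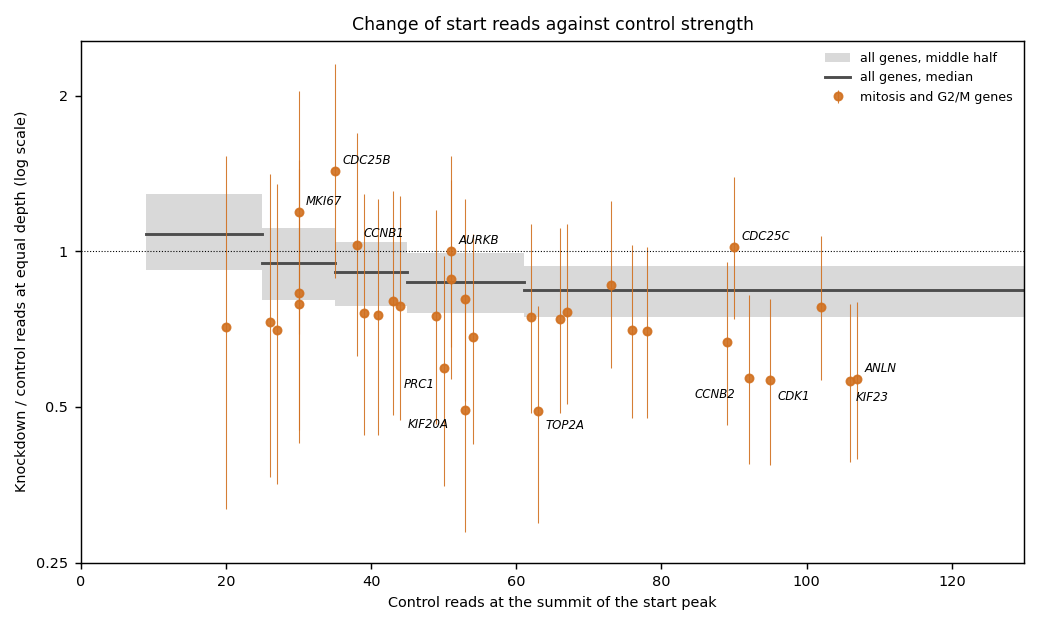
Knockdown over control reads at the start summit at equal depth (log scale) against control reads, for 33 mitosis and G2/M genes (points, with exact 95% counting intervals). Grey bands and bars give the quartiles and the median of all 8849 genes in 5 groups of control strength, the last of which reaches 240 reads and is drawn to the edge of the plot; most points lie under the bar of their group, with TOP2A (0.490) and KIF20A (0.493) lowest and CDC25B (1.43) highest.

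Among the cyclins, CDK1 and the CDC25 phosphatases, the CDK1 and CCNB2 starts differed most and the CCNB1 and CDC25C starts least. CDK1, the mitotic kinase (chromosome 10, 60778331 to 60794852), had 95 control and 45 knockdown reads, a ratio of 0.563 (0.386 to 0.810). CCNB2, which encodes cyclin B2 (chromosome 15, 59105146 to 59125045), had 92 and 44 reads, a ratio of 0.568 (0.387 to 0.822). Both intervals lay below 1. CCNA2, the gene of cyclin A2, had 54 and 31 reads (0.682, 0.424 to 1.08). CCNB1, which encodes cyclin B1, the main partner of CDK1 (chromosome 5, 69167150 to 69178245), had 38 and 33 reads, close to equal density (1.03, 0.627 to 1.69).

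CDC25C, a phosphatase that activates CDK1 at mitotic entry (chromosome 5, 138285265 to 138338355, minus strand), had the highest control fold at a start among the 33, 42.5, with 90 reads. Its knockdown start had 77 reads, a ratio of 1.02 (0.740 to 1.39). That start is shared with FAM53C. CDC25C had further listed starts 6478 and 6551 bp inside the main one, and a peak there in both lists, with 22 control and 15 knockdown reads; the bases before these starts held 3 CCAAT, and 1 CCAAT with 1 TTTGAA. CDC25B, a second phosphatase of this family, had 35 and 42 reads at a start shared with CENPB (1.43, 0.888 to 2.30). At an inner start of CDC25B alone, 8838 bp inside, the peak held 49 control and 35 knockdown reads. At the outer starts of both CDC25 genes the lists cannot separate their reads from those of the neighbours.

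In the APC/C and separase axis none of 3 starts was at least 1.5-fold lower, against 8.10% of all genes. CDC20, the APC/C activator (chromosome 1, 43358981 to 43363203), had 102 and 67 reads (0.780, 0.564 to 1.07) and the group's highest control fold, 33.7. PTTG1, the gene of securin, had 51 and 38 reads (0.885, 0.566 to 1.37). ESPL1, which encodes separase, the protease that cuts cohesin, had 26 and 16 (0.731, 0.366 to 1.41). All 3 intervals included 1. UBE2C, the E2 enzyme gene of the APC/C, is without a listed start; its lower-coordinate end had 89 and 75 reads, a ratio of 1.00 (0.726 to 1.38), and its higher end 40 and 18 reads, 0.534 (0.288 to 0.954). The peak at the lower end also touched an end of DNTTIP1.

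The mitotic kinases and the chromosomal passenger complex had start ratios between 0.700 and 1.00. BUB1, the checkpoint kinase gene (chromosome 2, 110637528 to 110678063, minus strand), had 78 and 46 reads (0.700, 0.476 to 1.02) and the highest control fold of the kinases, 19.8. PLK1, polo-like kinase 1, had 30 and 20 (0.792, 0.426 to 1.44). AURKB, the kinase of the passenger complex (chromosome 17, 8204731 to 8210575, minus strand), had 51 and 43 reads, a ratio of 1.00 (0.652 to 1.53). Its partners CDCA8, the gene of borealin, and INCENP had ratios of 0.761 (39 and 25 reads) and 0.831 (30 and 21 reads). BIRC5, the gene of survivin (chromosome 17, 78214253 to 78225635), without a listed start, had 65 control and 22 knockdown reads at its lower end, a ratio of 0.402 (0.236 to 0.661), and 20 and 15 at its higher end (0.891, 0.424 to 1.83). AURKA, the kinase of the spindle poles, had 18 and 15 reads at its lower end (0.990, 0.464 to 2.08) and 55 and 33 at its higher end (0.713, 0.448 to 1.12), near FAM210B and CSTF1. TTK, the MPS1 kinase, had 23 and 18 at its lower end (0.930, 0.473 to 1.80) and no peak at the other. The ratio at the BIRC5 lower end was below that at any member start, and its interval lay below 1.

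The 8 kinetochore and checkpoint genes had ratios in a narrow range, from 0.667 to 0.807. The highest control fold, 25.2, was at MAD2L1, which encodes the checkpoint protein MAD2 (chromosome 4, 120055623 to 120066848, minus strand), with 53 and 36 reads (0.807, 0.513 to 1.26). CENPA, the centromeric histone H3 gene, had 89 and 50 reads (0.667, 0.462 to 0.954), the one interval of the group that lay below 1. The fibrous kinetochore proteins CENPE and CENPF had 43 and 29, and 49 and 31 reads. The NDC80 complex, which binds microtubule ends, was covered by NDC80 (67 and 43), NUF2 (44 and 29) and SPC25 (20 and 12). BUB1B, the BUBR1 gene, had 27 and 16. All 8 had fewer reads in the knockdown library than at equal density, against 65.0% of all genes. None was at least 1.5-fold lower, against 8.10% of all genes, so 0 of 8 is near that share.

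The kinesins had the lowest group median, 0.649. KIF23, the centralspindlin motor gene (chromosome 15, 69414349 to 69448427), had 106 and 50 reads, with a control fold of 32.4 (0.560, 0.392 to 0.791). KIF20A, a motor needed in cytokinesis, had 53 and 22 reads (0.493, 0.286 to 0.825) at a start shared with BRD8. KIF2C, the microtubule depolymerase MCAK, had 66 and 41 reads (0.738), and KIF11, the spindle motor EG5, had 62 and 39 (0.747), with intervals that included 1.

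Spindle and cytokinesis genes were lower to different extents. ANLN, the gene of anillin, which scaffolds the contractile ring (chromosome 7, 36389862 to 36453791), had 107 and 51 reads, with a control fold of 36.1 (0.566, 0.397 to 0.797), at a start shared with MATCAP2. PRC1, the midzone bundling protein gene, had 50 and 25 reads (0.594, 0.352 to 0.978). HMMR, a spindle-associated hyaluronan receptor gene, had 76 and 45 (0.703, 0.475 to 1.03) at a start shared with NUDCD2. Its summits lay at -471 bp (control) and -557 bp (knockdown) from the HMMR start, upstream of it. ECT2, the RhoA exchange factor gene, had 41 and 26 (0.753). NUSAP1, a microtubule-binding protein gene, had 73 and 53 (0.862) at a start shared with OIP5. The intervals of ANLN and PRC1 lay below 1. TPX2, the activator of Aurora A, had 63 and 30 reads at its lower-coordinate end (0.566, 0.353 to 0.887).

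TOP2A and MKI67 had ratios on opposite sides of 1. TOP2A, the DNA topoisomerase that untangles sister chromatids (chromosome 17, 40388525 to 40417896, minus strand), had 63 control and 26 knockdown reads, the lowest start ratio of all members (0.490, 0.298 to 0.785). MKI67, the gene of the proliferation antigen Ki-67, had 30 reads in each library (1.19, 0.692 to 2.04). FOXM1, the transcription factor of the G2/M programme, had 74 and 47 reads at its higher-coordinate end (0.754, with an interval that includes 1), which is near RHNO1, and 26 and 20 at its lower end (0.914, 0.484 to 1.70).

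**Figure D2:**
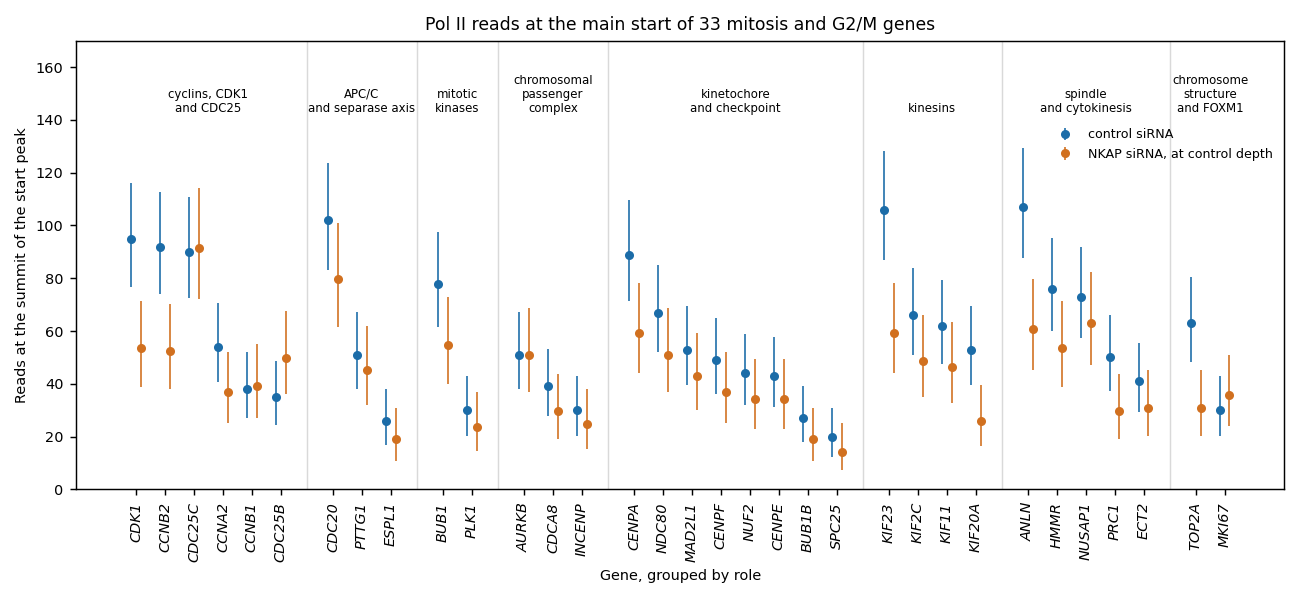
Reads at the summit of the start peak of 33 genes, grouped by role and ordered by control reads, with exact 95% Poisson intervals; knockdown reads and intervals are brought to the control depth. Control points run from 20 (SPC25) to 107 (ANLN) and lie above the knockdown points in most genes, while CDC25B, MKI67, CCNB1, CDC25C and AURKB have knockdown points level with or above the control.

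Start ratios were also compared by promoter letters. The 16 members with both CCAAT and TTTGAA had a median ratio of 0.722, and 5 of them were at least 1.5-fold lower. The 9 with CCAAT alone had a median of 0.807, and 1 of them was lower; the 6 with neither had 0.792, and none was lower. Over the 8849 genes, the 285 with both motifs had a median of 0.851, with 14.4% lower, and the 5358 with neither had 0.928, with 6.91% lower. Those with CCAAT alone had 0.891, with 9.36% lower, and those with TTTGAA alone 0.905, with 10.8% lower. The 1 of 9 members with CCAAT alone (11.1%) and none of 6 with neither are thus near the shares of their classes. Members with both motifs ranged from 0.490 (TOP2A) to 1.19 (MKI67), and the range of those with CCAAT alone, 0.493 to 1.03, lay within it. The median of the 2 members with TTTGAA alone, ANLN and BUB1B, was 0.635, and 1 of them was lower. The ratio of covered gene length ordered the members differently: it was 0.485 with both motifs, 0.353 with CCAAT alone, 0.224 with TTTGAA alone and 0.462 with neither, against 0.604 to 0.640 in the same classes of all genes.

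Peaks covered much less of these genes in the knockdown list. Control peaks covered 82.6 kb of the 39 genes and knockdown peaks 33.5 kb, a ratio of 0.405, against 0.608 over all genes with any covered length. The window peaks had a mean fold of 10.3 (control) and 9.71 (knockdown) and a median fold of 6.27 and 7.31. The covered length was smaller at 37 genes, equal at CDC25C (1954 bp) and larger at HMMR (1680 and 1893 bp). It was at least 1.5-fold smaller at 32 of 39 (82.1%), against 51.0% of all genes, and at least 1.5-fold larger at none, against 6.24%. With equal numbers of strongest peaks in the lists the ratio was 0.470 for the members and 0.683 for all genes.

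The largest losses in covered length were at ANLN (4195 to 895 bp), BIRC5 (4035 to 904), CDC25B (5220 to 2144), CCNB1 (4413 to 1372) and FOXM1 (3684 to 808). At CCNB1 the ratio of start reads was near 1, while the start zone had 1644 bp (control) and 1278 bp (knockdown) covered. Past the CCNB1 start peak, 7 control peaks followed along the gene and past its end, each with 10 to 21 reads. The knockdown list had 1, with 12 reads, 2674 bp from the start. At ANLN the start and the rest differed together, with 7 further control peaks in the window and none in the knockdown list. After HMMR and CDC25C the smallest differences were at TTK (369 and 281 bp), PLK1 (685 and 592 bp) and CENPE (839 and 685 bp), where peaks covered little beyond the start in either list.

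**Figure D3:**
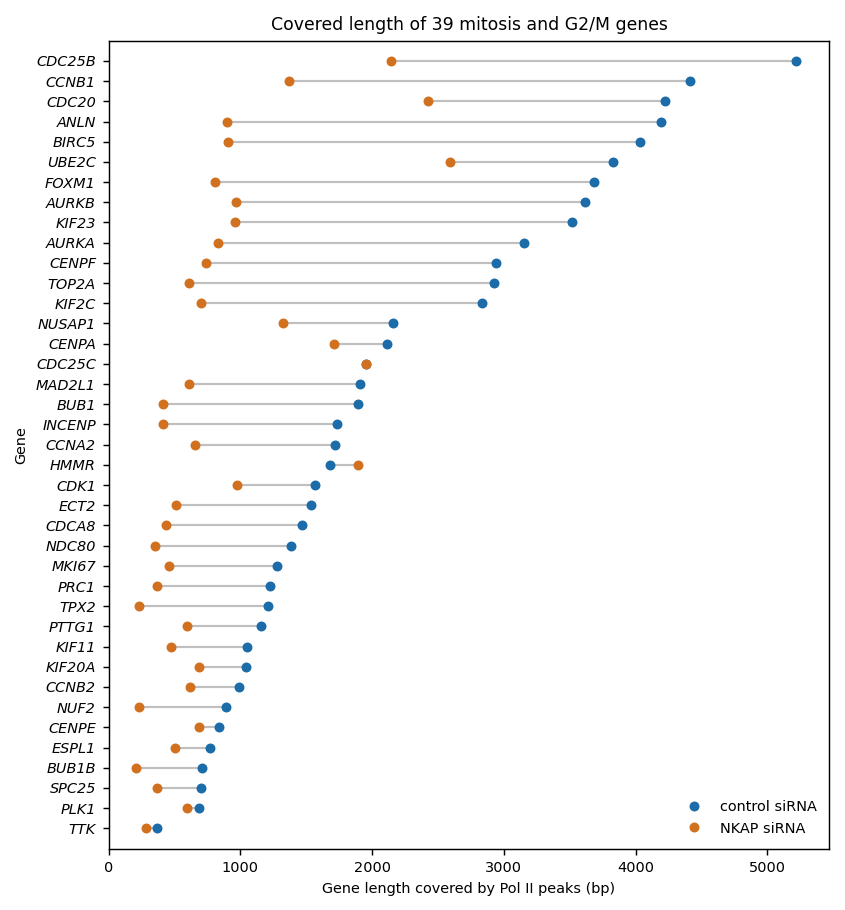
Gene length covered by control peaks (blue) and knockdown peaks (orange) at each of the 39 genes, in bp, ordered by the control value. The orange point is left of the blue at 37 genes, with the longest line at ANLN (4195 and 895 bp); the points coincide at CDC25C and the order is turned at HMMR.

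By position, covered length in the gene body and past the gene end differed more than at the start, as it did over all genes. Peaks outside the start lay nearer the calling limit. The median control summit of the members held 53 reads at starts, 13 in bodies, 15 at ends and 16 in downstream flanks. The lowest control peak had 8. How much of the order of the zones comes from this limit was not tested. Windows of the 33 genes were divided into an upstream flank (5000 to 1000 bp before the start), the start (within 1000 bp), the body, the end (within 1000 bp) and a downstream flank (1000 to 5000 bp past the end). The knockdown over control covered length was 0.729 at starts, 0.231 in bodies, 0.312 at ends and 0.254 in downstream flanks. Over the 8849 genes it was 0.797, 0.483, 0.591 and 0.568. Upstream flanks had 0.393, against 0.531. Without zones that touched 1000 bp around an end of another protein-coding gene, the members had 0.698 at starts, 0.240 in bodies, 0.295 at ends and 0.199 in downstream flanks, and the upstream ratio of 0.495 was close to the 0.498 of all genes.

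**Figure D4:**
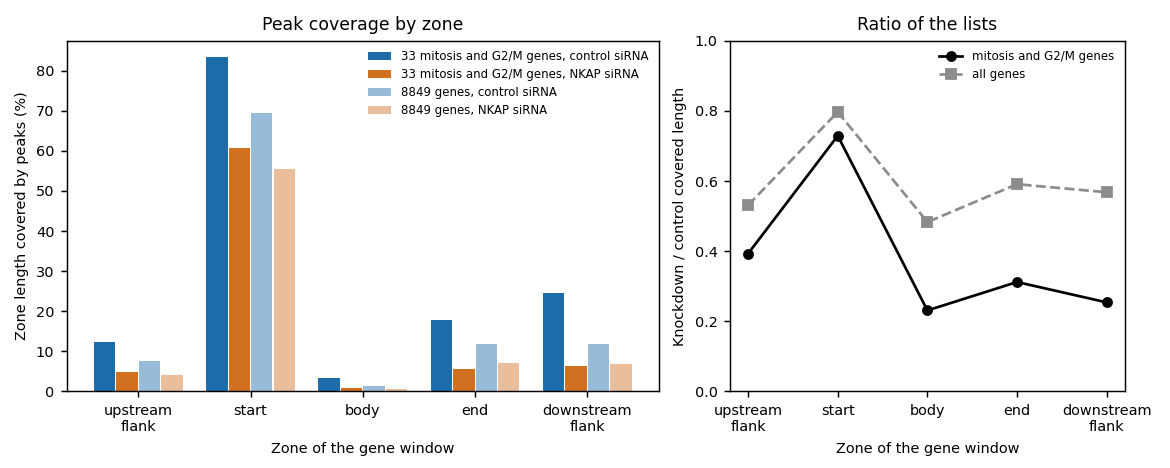
Left, share of each zone covered by peaks (%) in each list, for 33 mitosis and G2/M genes (full colour) and 8849 genes with a start peak in both lists (pale). Right, knockdown over control covered length per zone; members (black) run from 0.729 at starts to 0.231 in bodies and lie below all genes (grey) in each zone.

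In the control list, body coverage was more common in these genes than in all genes, while in the knockdown list the shares were closer. Unlike the start ratios, these shares and the covered lengths above were not matched for start strength or gene length. Covered length here includes the edges of start and end peaks that reach into the body. Among bodies clear of other gene ends, 23 of 26 members (88.5%) had some covered length in the control list, against 51.9% of 6622 genes. In the knockdown list it was 6 of 26 (23.1%), against 34.3%. When control peaks were scaled to the knockdown depth, 21 of 26 were covered, against 51.1% of all genes. That scaling drops weak control peaks but leaves the kept ones at full width. It therefore cannot show how far their edges would shrink at lower depth. Without the 1000 bp on either side of further listed starts, the members' counts stayed at 23 and 6, and the all-gene shares were 47.3% and 29.3%. Downstream flanks were covered at 13 of 27 members (48.1%) in the control list, against 20.2% of 5902 genes, and at 6 (22.2%) in the knockdown list, against 12.3%. Among the 10000 strongest peaks of each list, 17 (control) and 3 (knockdown) members had a covered body, against 34.2% and 20.9% of all genes. At that setting 1 and 0 members had a covered downstream flank, against 3.9% and 3.56%, counts too small to show or exclude a difference. With flanks near ends of other genes included, the knockdown over control covered length of downstream flanks there was 0.36. For all genes it was 0.714.

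Single peaks were also set against the other list. The member windows held 158 control peaks, of which a knockdown peak overlapped 66 (41.8%, 34.4 to 49.6), and 84 knockdown peaks, of which 80 (95.2%, 88.4 to 98.1) were overlapped. Over all listed peaks, 54.2% of the control and 82.8% of the knockdown peaks were overlapped. All 33 control start summits lay in overlapped peaks, while of 44 control summits in bodies, spread over 19 genes, 41 (93.2%) did not, against 63.1% of 10781 control summits in the bodies of all genes with a listed start. These body peaks were weak, with a median of 13 reads and a median fold of 5.28. At equal density the median would be 10.9 reads in the knockdown library, near the 8 reads of its lowest peak. How many were missed through lower depth was not tested. The knockdown list had 6 body summits, at CCNB1, CDC25B, CDC25C, HMMR and CDC20 (2), of which those of CDC25B and CDC25C lay at listed inner starts. The 4 knockdown peaks without a control peak were weak, with 9 to 13 reads, and lay past the ends of AURKB, NDC80, PTTG1 and TPX2.

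Body coverage was found in the control list only at 20 of the 33 genes (60.6%), against 1731 of 8621 genes (20.1%). Among the 20, TOP2A, KIF23, ANLN, CENPF, ECT2, KIF2C and AURKB also had control peaks with a summit in the body. At CDK1 (566 bp), NDC80 (382 bp), PTTG1 (159 bp) and KIF11 (49 bp) the coverage was only the edge of the control start peak. At MKI67 (196 bp) it was the edge of a control peak with its summit in the end zone. These genes had no separate body peak to lose. At TOP2A 4 control peaks with 11 to 14 reads lay between 2045 and 22745 bp from the start, and past the end 3 control peaks faced 1 knockdown peak at 1391 bp. At KIF23 4 control body peaks held 14 to 18 reads and the knockdown list had none there; the strong downstream peak in both lists lies at the neighbouring gene RPLP1 (166 and 140 reads). At CDC20 a single control peak of 7637 bp covered the gene from end to end, where 3 separate knockdown peaks covered 57.4% of it. At AURKB the ratio of start reads was 1.00, but by covered length both zones were smaller in the knockdown list. The start zone had 2001 bp (control) and 1045 bp (knockdown), and the body 1305 and 0 bp. Within the AURKB body 1 control peak of 764 bp, with 12 reads, had its summit. The remaining body length belonged to edges of the control start and end peaks. Bodies were covered in neither list at BUB1B, CCNB2, CENPE, NUF2, PLK1 and SPC25.

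**Figure D5:**
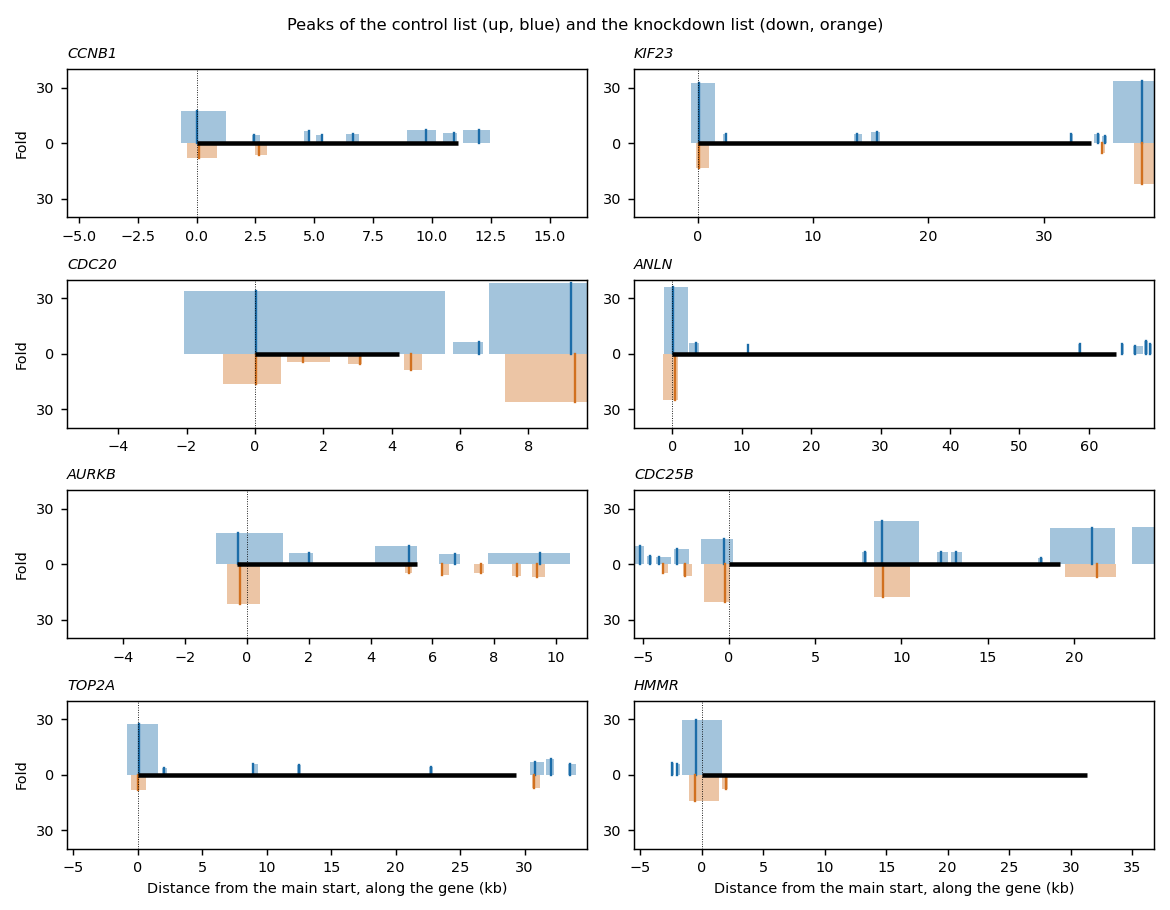
Peaks at 8 genes as distance from the main start along the gene (kb), control list upward (blue) and knockdown list downward (orange); box height is the authors' fold at the summit, the line marks the summit and the black bar the gene. Small control peaks along CCNB1, TOP2A, KIF23 and ANLN mostly have no counterpart below, and the tall downstream boxes at CDC20 and KIF23 belong to windows that reach ELOVL1 and RPLP1.

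Other genes of the same processes, none of them members, showed like values. All 63 further mitotic genes had a window peak in both lists, against 64.7% of protein-coding genes. Of 45 with a start peak in both, 10 were at least 1.5-fold lower, against 8.10% of all genes, and none higher, against 2.99%. Their median ratio was 0.759, and peaks covered 115 kb (control) and 46.9 kb (knockdown) of the 63 genes (0.406). The lowest of these ratios were at ARHGAP11A (0.445), CENPU (0.480) and the kinesin gene KIF4A (0.531). Subunits of the APC/C lay closer to all genes: 2 of 15 starts were lower, ANAPC15 (0.602) and ANAPC16 (0.627), with a median of 0.908 and a covered ratio of 0.677. Condensin and cohesin genes had a median of 0.838 with 3 of 15 lower, and a covered ratio of 0.555. Both counts of 15 stand beside 8.10% of all genes and are too small to set apart from that share.

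For genes of the regulators that bind the promoter letters shown above, the median start ratio lay between those of the members and all genes. For MuvB, NF-Y and their partners it was 0.812, over 12 genes with start peaks in both lists, and the covered ratio was 0.471. The members had 0.751 and 0.405, and all genes 0.914 and 0.608. Of the 12 starts, 1 was at least 1.5-fold lower, against 8.10% of all genes. This was LIN54, the MuvB subunit that binds the CHR, with 43 control and 14 knockdown reads (0.387). MYBL2, the gene of B-MYB, had 83 and 50 reads (0.715), with 2931 and 673 bp covered. NFYA, which encodes a subunit of NF-Y, had 90 and 86 reads (1.13).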

How the data were processed

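Pol II ChIP-seq peaks of 1 control siRNA and 1 NKAP siRNA library were used. Reads were handled with bcl2fastq 2.17, Trimmomatic 0.33 and Bowtie 1.1.2, and peaks called with MACS2 2.1.0 on hg38, per the submitters' processing notes; the settings and the background library are not given in the sources used. The authors called peaks per library and deposited, for each, a score (10 times the −log10 q-value, cut to whole numbers), the fold enrichment at the summit (a ratio), −log10 p-values and −log10 q-values, and the summit place; single peaks were described and ranked by fold only within a list, and mean and median folds are given beside covered lengths with no comparison. The lists end at −log10 q-values of 3.01 and 3.02, so regions below them are missing.

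Since the caller's fold is (pileup + 1)/(background + 1) and its p is a Poisson tail, fold and p together gave the reads at each summit. Whole reads came out for 100.0% of peaks in each list, within 0.002 of the deposited −log10 p, and the recovery was tested on simulated peaks. The knockdown reads had been scaled by 0.9257 in calling. Depths were estimated from the lowest background common in each list and the smallest peak width taken as fragment length (229 and 225 bp).

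Analysis was limited to chromosomes 1 to 22 and X. Genes, strands and promoter bases came from RefSeq tables of GRCh38.p14; exons and introns are not given there, and no genome sequence was used. A peak overlapping by 1 bp counted. A start peak was the one with most reads touching the 1000 bp on either side of the main start. With 1 library per group, a size of 1.5-fold stood in for a call and no test was made. The members and gene lists were chosen with earlier results of these data known. Named in full were the highest control fold of each role group, the largest losses and gains of covered length and the 5 strongest starts; other names were chosen after their values were seen. Alternatives were windows, thresholds, equal list sizes and depth. Computation used Python 3.11.15 with pandas 2.3.3, numpy 2.4.6, scipy 1.17.1 and matplotlib 3.10.9.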

Additional observations from a re-analysis of the deposited data

How the results depend on the processing

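Of 134 values recomputed for the members under the alternatives, 114 stayed within 1.5 times the reported value (shares: within their interval). No ratio moved to the other side of 1, and direction was checked for ratios only. Equal list sizes and depth scaling leave the knockdown list as it was, so its peak counts and covered lengths could not move there. Control peaks kept in these alternatives also keep their full width. With equal numbers of strongest peaks the member windows held 102 control peaks, 59.8% of them overlapped, and 1 member had a covered length at least 1.5-fold larger, as it had at −log10 q of at least 5 and with control peaks scaled to the knockdown depth. With the 10000 strongest peaks of each list they held 42 control peaks (83.3% overlapped) and 36 knockdown peaks, control peaks covered 50.5 kb of the genes, the ratio at gene ends was 0.144, 4 members had a peak in 1 list only, 3 had a covered body in the knockdown list, and 1 (control) and 0 (knockdown) a covered downstream flank. At −log10 q of at least 5, 1 member had a peak in 1 list only. Without peaks at ends of other genes 6 members did, and 31.2% of control and 83.9% of knockdown peaks were overlapped. With windows of 1000 bp, 98.5% of knockdown peaks were overlapped. With the all-gene median set to 1, 1 member start was at least 1.5-fold higher. These alternatives remove peaks or shift the scale by construction. The start comparisons without shared starts, with other start windows or on the all-gene median, and the body, downstream and depth-scaled zone values, were chosen after seeing the data. No paired analysis was possible because each group held 1 library. Summits of 8 to 20 reads limit what a missing peak shows.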
